A study of Mus musculus with 12 samples.

Results

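The genes described here are 48 genes of ribosome biogenesis and the nucleolus, chosen by name, and all 48 had a row in the expression table of 12151 genes. They were chosen with earlier results of these data known, so the list is not independent of the data. The 12 RNA libraries came from mouse pre-B cells that had been turned into leukemia cells by BCR-ABL1, a tyrosine kinase oncogene, and that serve as a model of acute lymphoblastic leukemia of the B lineage. The cells were grown from bone marrow of mice aged 6 to 12 weeks, with 10 ng per ml of the cytokine IL-7 before transformation, and all carried Ctnnb1Ex3fl/+, in which exon 3 of 1 copy of the β-catenin gene can be cut out by Cre. Loss of that exon removes the phosphorylation sites that mark β-catenin for degradation, so that the protein accumulates.

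The 4 groups held 3 libraries each. ERT2 WT and Cre-ERT2 WT cells had received nontargeting guides (sgNTC), and ERT2 KO and Cre-ERT2 KO cells had received guides against Ikzf1 and Ikzf3, which encode the B lymphoid transcription factors Ikaros and Aiolos. ERT2 cells carried a vector for the tamoxifen-binding domain alone, and Cre-ERT2 cells carried a vector whose Cre acts once 4-hydroxytamoxifen (4-OHT) is given. Both vectors expressed GFP, on which the cells were sorted, and the protocol gives day 1 of 4-OHT as the time of harvest, though its text speaks of ChIP-seq. The cell lines had been grown from single cells, and it is not given whether the 3 libraries within a group came from different lines, cultures or days, so a p measures the spread between these libraries, which may be technical. A difference between Cre-ERT2 and ERT2 libraries is called the β-catenin effect below, although active Cre and stabilized β-catenin cannot be told apart in this design.

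Values are the authors' normalized log2 values, and a change is a difference of 2 group means on that scale. Library medians over all genes lay between 9.06 and 9.11, and depth is unknown. In the gene annotation (GENCODE, GRCm38), 15 of the 48 genes overlap a protein-coding gene on the opposite strand, Gnl3, Heatr1, Pes1, Noc2l and Rrp1b among them, and whether reads were counted by strand is not given in the sources used here. All 12 pre-B cell markers examined were present, with log2 summed levels of 16.8 in the WT groups and 16.4 to 16.5 in the KO groups. The sum is led by the most abundant markers. Rag1, Rag2 and Cd22 had higher means in KO than in WT cells with either vector, and the other markers of the list had lower ones. Of other cell types, 1 of 6 T cell markers (Cd5), 2 of 6 myeloid markers (Lyz2 and Itgam), 0 of 5 erythroid and 0 of 4 stromal markers had a row, and the defining genes Cd3e, Csf1r, Gata1 and Col1a1 had none. Cd5 was higher in Cre-ERT2 than in ERT2 libraries without overlap, at 7.09 to 7.24 against 6.65 to 6.67 in WT and at 7.76 to 7.88 against 6.77 to 6.83 in KO cells, and its part in the β-catenin effect was not tested. The summed myeloid markers ranged from 7.57 to 7.62 in WT and from 8.45 to 8.76 in KO libraries. Of the pair, Lyz2 had higher means in the KO groups (8.40 and 8.61 against 7.41 and 7.38) and Itgam lower ones (4.51 and 4.52 against 4.66 and 4.70), and their part in the KO against WT values was not tested. In the check of the labels, Ikzf1 mRNA was higher in the KO groups (means 14.58 and 14.75) than in the WT groups (13.68 and 13.74), although the label names a knockout. Ikzf3 mRNA was lower (10.98 and 11.22 against 11.63 and 11.92). An edit that shifts the reading frame cannot be read from such values. For this experiment, the paper reports a western blot check of the deletion of these factors in clones grown from single cells. Which of the clones gave these libraries is not given, and KO is used here as the label of these libraries. Ctnnb1 had means of 12.44 to 12.75 over the 4 groups.

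Ribosomes are assembled in the nucleolus. RNA polymerase I transcribes the long ribosomal RNA (rRNA) precursor there, small nucleolar ribonucleoproteins (snoRNPs) guide its chemical modification, and a large set of assembly factors folds and cuts it into the precursors of the 40S and 60S subunits. The pathway takes up much of the transcription of a growing cell, and many of its genes are known targets of the transcription factor Myc, which binds the E-box letters CACGTG.

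Because the promoters of these genes bear on that background, the 250 bases before the gene start (RefSeq, GRCm38.p6) are shown for 3 genes that hold CACGTG there and that differed in their response. Nop2 fell in WT cells, Utp18 fell in both backgrounds, and Rrn3, which holds the motif 2 times, did not pass the test in any comparison. Capitals mark CACGTG, which reads the same on both strands.
Nop2, chr6:125131633-125131882, plus strand: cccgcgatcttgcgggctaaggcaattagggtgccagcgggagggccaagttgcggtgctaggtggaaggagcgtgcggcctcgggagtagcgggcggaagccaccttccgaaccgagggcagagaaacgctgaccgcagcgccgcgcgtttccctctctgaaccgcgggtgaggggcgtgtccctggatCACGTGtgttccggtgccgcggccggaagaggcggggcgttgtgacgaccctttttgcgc
Utp18, chr11:93885767-93886016, minus strand: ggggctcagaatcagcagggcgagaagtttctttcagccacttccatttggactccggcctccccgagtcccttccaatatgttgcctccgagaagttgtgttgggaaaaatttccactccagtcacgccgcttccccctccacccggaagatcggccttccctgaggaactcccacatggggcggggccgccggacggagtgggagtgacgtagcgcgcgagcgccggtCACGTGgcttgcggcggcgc
Rrn3, chr16:13780449-13780698, plus strand: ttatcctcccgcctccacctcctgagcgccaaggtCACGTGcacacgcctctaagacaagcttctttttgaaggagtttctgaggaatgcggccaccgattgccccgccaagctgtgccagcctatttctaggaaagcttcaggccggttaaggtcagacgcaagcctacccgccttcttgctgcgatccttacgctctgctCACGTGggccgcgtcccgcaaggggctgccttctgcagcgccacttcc
Over a window from 250 bases before to 50 bases after the start, promoters were at hand for 43 of the 48 genes, and 10 of these 43 (23.3%) held CACGTG, namely Imp4, Ltv1, Mybbp1a, Nop2, Pes1, Rrn3, Tsr1, Utp18, Utp20 and Wdr43. The share was 12.0% among the 8523 other genes of the table with a promoter and 8.09% among all 27025 genes. TGGGAA, a core motif of Ikaros binding (searched with its reverse complement TTCCCA), was held by 15 of 43 (34.9%) against 26.2% and 28.3% in the same sets. CTTTGA, the core of the motif bound by the TCF partners of β-catenin (searched with TCAAAG), was held by 4 of 43 (9.30%) against 14.3% and 18.2%. These matches are letters in a window and not binding sites, and none of the 3 motifs contains another.

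The first comparison asked how the genes respond to β-catenin stabilization in cells with intact Ikzf1 and Ikzf3. The decreases were small and reached at least 2 genes of every role in the pathway. Of the 48 genes, 33 were lower in Cre-ERT2 WT than in ERT2 WT libraries, none was higher, and 15 were not called (limma, Benjamini-Hochberg adjusted p under 0.05 over all genes). Among all genes, 5.95% were called lower and 5.93% higher. At an unadjusted p under 0.05 (limma), 40 of the 48 were lower and still 0 higher, and the share of all genes at this cutoff is not given here. In such bulk libraries, fewer cells of a kind and less RNA per cell cannot be told apart. All 48 values lay below 0, with a median of −0.14, or 9.20% less on the linear scale, where the median of all genes was 2.18e-05. The range ran from −0.28 for Rrp1b to −0.012 for Nolc1. In 41 of the 48 genes all 3 Cre-ERT2 WT values lay below all 3 ERT2 WT values, a pattern found in 15.9% of all genes.

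**Figure D1:**
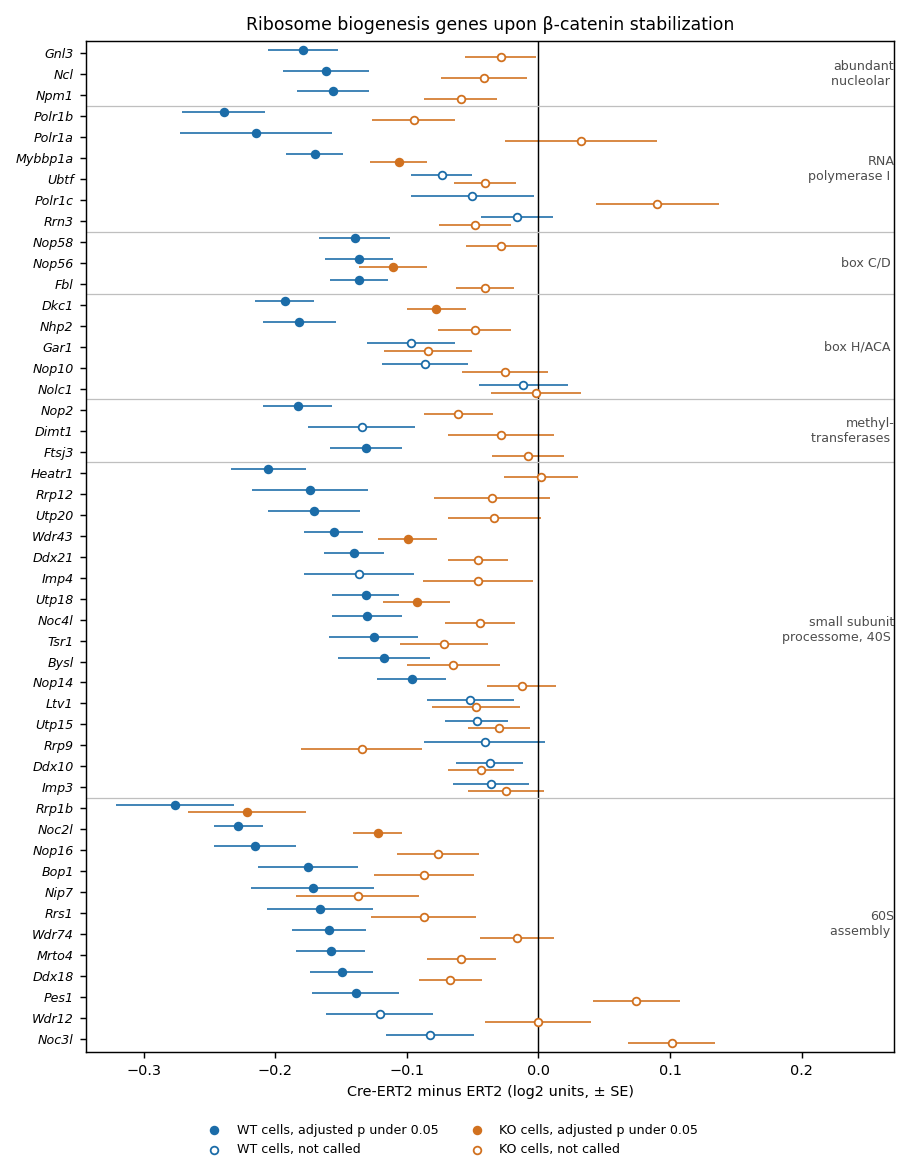
Change of each of the 48 genes upon β-catenin stabilization (Cre-ERT2 minus ERT2, log2 units, x axis) in WT cells (blue) and KO cells (orange), grouped by role. Points are differences of means of 3 libraries with their SE, and filled points passed the test. All blue points lie below 0, 33 of them filled, and 7 orange points are filled.

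The mRNAs of the 3 abundant nucleolar proteins all fell in WT cells. Ncl encodes nucleolin, an RNA-binding protein of the nucleolus (ENSMUSG00000026234, chromosome 1, 86344719 to 86359400, minus strand). Its ERT2 WT values were 16.14, 16.18 and 16.09, and its Cre-ERT2 WT values were 15.93, 16.02 and 15.99. The groups did not overlap, and the mean fell by 0.16 (SE 0.033, adjusted p 0.00631). Under quantile normalization Ncl was not called (adjusted p 0.0916). Npm1, a chaperone of the outer nucleolar layer (ENSMUSG00000057113, chromosome 11, 33152287 to 33163206, minus strand), measured 15.63, 15.63 and 15.61 in ERT2 WT and 15.44, 15.50 and 15.46 in Cre-ERT2 WT libraries. It fell by 0.16 (SE 0.028, adjusted p 0.0026), with all 3 Cre-ERT2 values below the ERT2 values. Reads of Npm1 can be shared with its processed pseudogenes, so its level is less certain. Gnl3, the nucleolar GTP-binding protein nucleostemin (ENSMUSG00000042354, chromosome 14, 31012433 to 31019152, minus strand), measured 11.28, 11.24 and 11.36 in ERT2 WT and 11.12, 11.11 and 11.11 in Cre-ERT2 WT libraries. The Cre-ERT2 WT values lay close together and below all ERT2 WT values, and the mean fell by 0.18 (SE 0.027, adjusted p 0.000826).

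Among 6 genes of RNA polymerase I and its regulators, 3 fell. Polr1b, the second largest subunit of the enzyme (ENSMUSG00000027395, chromosome 2, 129100995 to 129126594, plus strand), measured 11.03, 11.07 and 11.01 in ERT2 WT and 10.79, 10.82 and 10.78 in Cre-ERT2 WT libraries. The groups were clearly apart, and the fall of 0.24 (SE 0.032, adjusted p 0.000342) was the second largest of the 48. The largest subunit, Polr1a, fell by 0.21 (SE 0.058, adjusted p 0.0303), with more spread between libraries (10.40, 10.26 and 10.21 against 10.13, 10.16 and 9.94). Mybbp1a, a nucleolar protein that restrains RNA polymerase I, fell by 0.17 (SE 0.022, adjusted p 0.000248). The other members of the group were not called. Ubtf, which keeps ribosomal DNA open, changed by −0.074 (adjusted p 0.0639), Polr1c, shared with RNA polymerase III, by −0.05 (adjusted p 0.57), and the initiation factor Rrn3 by −0.017 (adjusted p 0.784).

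Of the snoRNP genes, 5 of 8 fell. All 3 core genes of the box C/D particles, which guide ribose methylation, fell by nearly the same amount: Nop58 by 0.14, Nop56 by 0.14 and the methyltransferase Fbl by 0.14 (adjusted p 0.00467, 0.00429 and 0.00131). Of the box H/ACA particles, which guide pseudouridine formation, Dkc1 and Nhp2 fell. Dkc1, the pseudouridine synthase dyskerin (ENSMUSG00000031403, chromosome X, 75095854 to 75109777, plus strand), measured 12.55, 12.59 and 12.53 in ERT2 WT and 12.36, 12.37 and 12.37 in Cre-ERT2 WT libraries. The Cre-ERT2 values lay close together and below every ERT2 value, and the fall was 0.19 (SE 0.023, adjusted p 0.000122). Gar1 and Nop10 changed by −0.097 and −0.086 and were not called (adjusted p 0.0876 and 0.118). The snoRNP chaperone Nolc1 was the only one of the 48 genes with a mean under 6 on the deposited scale, at group means from 4.03 to 4.06, and its change of −0.012 was not called (adjusted p 0.893). Among the rRNA methyltransferases, Nop2 fell by 0.18 (SE 0.026, adjusted p 0.000541) and Ftsj3 by 0.13 (SE 0.027, adjusted p 0.00756), and Dimt1, at −0.13, lay just outside the threshold (adjusted p 0.0503).

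The 40S branch was lower in 10 of 16 genes. Heatr1, a part of the small subunit processome that also aids RNA polymerase I transcription (ENSMUSG00000050244, chromosome 13, 12395027 to 12440289, plus strand), measured 12.60, 12.58 and 12.54 in ERT2 WT and 12.33, 12.40 and 12.38 in Cre-ERT2 WT libraries. Its groups did not overlap, and it fell by 0.21 (SE 0.028, adjusted p 0.000468). Rrp12, an export factor of the pre-40S particle, fell by 0.17, Utp20 by 0.17, Wdr43 by 0.16, the helicase Ddx21 by 0.14, Utp18 by 0.13, Noc4l by 0.13, Tsr1 by 0.13, Bysl by 0.12 and Nop14 by 0.096 (adjusted p from 0.000592 to 0.0499). Imp4 missed the threshold at −0.14 (adjusted p 0.0552) although its groups did not overlap. The late factor Ltv1, Utp15, the U3 snoRNP protein Rrp9, the helicase Ddx10 and Imp3 had values between −0.052 and −0.036 and were not called.

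The 60S branch was lower in 10 of 12 genes and held the largest fall. Rrp1b (ENSMUSG00000058392, chromosome 17, 32036100 to 32062865, plus strand) measured 10.75, 10.84 and 10.89 in ERT2 WT and 10.55, 10.59 and 10.52 in Cre-ERT2 WT libraries. All Cre-ERT2 values were lower, and the fall of 0.28 (SE 0.045, adjusted p 0.00139), or 17.4%, was the largest of the 48. Noc2l, an intranuclear transport factor of the pre-60S particle (ENSMUSG00000095567, chromosome 4, 156236010 to 156247616, plus strand), measured 12.86, 12.85 and 12.84 in ERT2 WT and 12.61, 12.63 and 12.63 in Cre-ERT2 WT libraries. Its replicates were tight, and the fall of 0.23 (SE 0.019, adjusted p 5.47e-06) had the smallest adjusted p of the 48. Nop16 fell by 0.22 (SE 0.031, adjusted p 0.000654). Bop1 and Pes1, partners in the PeBoW complex that shapes the 60S precursor, fell by 0.18 and 0.14, and the third partner, Wdr12, changed by −0.12 without a call (adjusted p 0.0793). Nip7, Rrs1, Wdr74, Mrto4 and the helicase Ddx18 fell by 0.15 to 0.17, and Noc3l, at −0.083, was not called (adjusted p 0.143).

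The genes of the promoter search are given side by side for this comparison. Of the 10 genes with the motif, 7 were lower in WT cells, with a median change of −0.14, and of the 33 with a promoter lacking it, 21 were lower, with a median of −0.14. In the sequences above, Nop2 and Utp18 were lower and Rrn3 was not called.

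The second comparison asked the same of KO cells. Here 7 of the 48 genes were lower in Cre-ERT2 than in ERT2 libraries, none was higher and 41 were not called, where 5.33% of all genes were called lower and 7.27% higher. At an unadjusted p under 0.05 (limma), 17 were lower and 2 higher, Pes1 and Noc3l, without a share of all genes beside them. The median change was −0.046, or 3.13% less, against −0.00041 for all genes, and 43 values lay below 0. All 3 Cre-ERT2 KO values lay below all 3 ERT2 KO values in 16 genes, against 13.9% of all genes. All 7 genes had also fallen in WT cells, and they came from 5 of the 7 roles. Leaving out ERT2 KO replicate 1 left 3 calls, Rrp1b, Noc2l and Mybbp1a, and added Noc3l as higher, and leaving out Cre-ERT2 KO replicate 1 added Polr1c as higher.

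Rrp1b measured 11.06, 11.20 and 11.05 in ERT2 KO and 10.87, 10.93 and 10.85 in Cre-ERT2 KO libraries. The groups did not overlap, and the fall of 0.22 (SE 0.045, adjusted p 0.00597) was again the largest. Noc2l measured 12.77, 12.76 and 12.74 in ERT2 KO and 12.62, 12.66 and 12.63 in Cre-ERT2 KO libraries, a fall of 0.12 (SE 0.019, adjusted p 0.00077) with no overlap. Nop56 measured 13.07, 13.01 and 12.99 in ERT2 KO and 12.93, 12.92 and 12.89 in Cre-ERT2 KO libraries. All its Cre-ERT2 values were lower, and it fell by 0.11 (SE 0.026, adjusted p 0.0148). Mybbp1a measured 13.81, 13.78 and 13.77 in ERT2 KO and 13.67, 13.70 and 13.68 in Cre-ERT2 KO libraries, and fell by 0.11 (SE 0.022, adjusted p 0.00635), also without overlap. Wdr43, a protein of the first processome subcomplex to bind the rRNA precursor, fell by 0.099 (SE 0.022, adjusted p 0.0113). Utp18 fell by 0.093 (SE 0.025, adjusted p 0.0325) and Dkc1 by 0.078 (SE 0.023, adjusted p 0.0421).

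Genes at the head of the WT list were among those not called in KO cells. Polr1b changed by −0.095 (95% interval −0.16 to −0.026, adjusted p 0.0755), Nop16 by −0.076 (interval −0.14 to −0.008, adjusted p 0.149) and Heatr1 by 0.0019 (interval −0.06 to 0.064, adjusted p 0.981). The 3 abundant proteins had values of −0.041 for Ncl, −0.059 for Npm1 and −0.029 for Gnl3 (adjusted p 0.486, 0.207 and 0.564). Values above 0 were found in 5 genes, Noc3l, Polr1c, Pes1, Polr1a and Heatr1, and none of these passed the test. Across the 48 genes the WT and KO changes, which share no library, had a Pearson r of 0.38 and a Spearman rho of 0.34, given as a description over genes that are not independent.

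**Figure D2:**
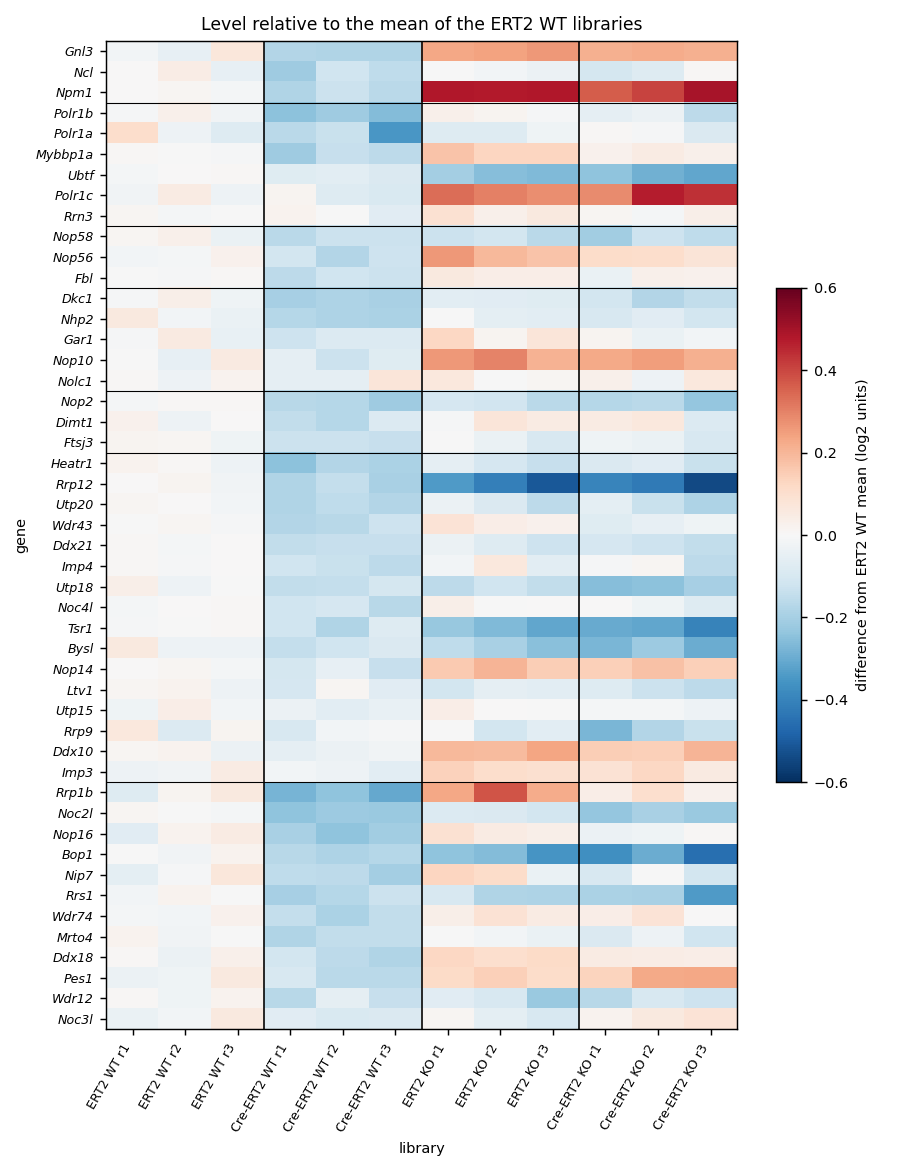
Level of each of the 48 genes (rows, grouped by role) in each of the 12 libraries (columns, r for replicate), as the difference from the mean of the ERT2 WT libraries in log2 units (colour). The Cre-ERT2 WT columns are blue for nearly all genes, and the KO columns hold rows of both colours, led by Npm1 (higher) and Rrp12 (lower).

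The difference of the 2 effects was tested directly. The effect was less negative in KO than in WT cells in 45 of 48 genes, and the median difference was 0.092, against 0.0011 for all genes. Single differences passed the test in 5 genes, all towards a higher value in KO cells, and in none in the other direction, where 2.71% of all genes were called higher and 1.82% lower. At an unadjusted p under 0.05 (limma), 24 were higher and 0 lower. The shares of all genes above do not apply to this cutoff. Those at this cutoff are not given here, so the counts of 24 and 0 are not set against all genes. The 5 genes were Pes1, Heatr1, Noc3l, Gnl3 and Noc2l. The other 43 were not called, and all 48 values come from the same 12 libraries.

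Heatr1 measured 12.52, 12.47 and 12.43 in ERT2 KO and 12.49, 12.50 and 12.44 in Cre-ERT2 KO libraries, which overlapped, so that its fall of 0.21 in WT cells stood against 0.0019 in KO cells. The difference was 0.21 (SE 0.04, adjusted p 0.0113). Pes1 (ENSMUSG00000020430, chromosome 11, 3963975 to 3980004, plus strand) measured 11.87, 11.88 and 11.96 in ERT2 WT, 11.80, 11.74 and 11.74 in Cre-ERT2 WT, 12.01, 12.04 and 12.01 in ERT2 KO and 12.03, 12.13 and 12.13 in Cre-ERT2 KO libraries. Its effect was −0.14 in WT and 0.074 in KO cells, where the groups overlapped, with a difference of 0.21 (SE 0.047, adjusted p 0.0223). Noc3l, a partner of Noc2l in pre-60S transport, measured 10.02, 10.04 and 10.12 in ERT2 WT, 9.99, 9.97 and 9.97 in Cre-ERT2 WT, 10.07, 10.00 and 9.96 in ERT2 KO and 10.08, 10.12 and 10.14 in Cre-ERT2 KO libraries. Neither single effect was called (−0.083 and 0.10), and the difference was 0.18 (SE 0.047, adjusted p 0.0477).

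Gnl3 had a difference of 0.15 (SE 0.038, adjusted p 0.0447), from KO values of 11.52, 11.54 and 11.55 in ERT2 and 11.50, 11.51 and 11.51 in Cre-ERT2 libraries. Noc2l fell in both backgrounds, by more in WT cells, with a difference of 0.11 (SE 0.026, adjusted p 0.0413). The count of 5 depended on single libraries. It was 1 without Cre-ERT2 WT replicate 2, Cre-ERT2 WT replicate 3 or ERT2 KO replicate 3, 2 without ERT2 WT replicate 3, Cre-ERT2 WT replicate 1, ERT2 KO replicate 1, ERT2 KO replicate 2 or Cre-ERT2 KO replicate 2, 3 without ERT2 WT replicate 2, and 4 to 6 without any one of the other three. Heatr1 passed an adjusted p under 0.05 in each of these.

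**Figure D3:**
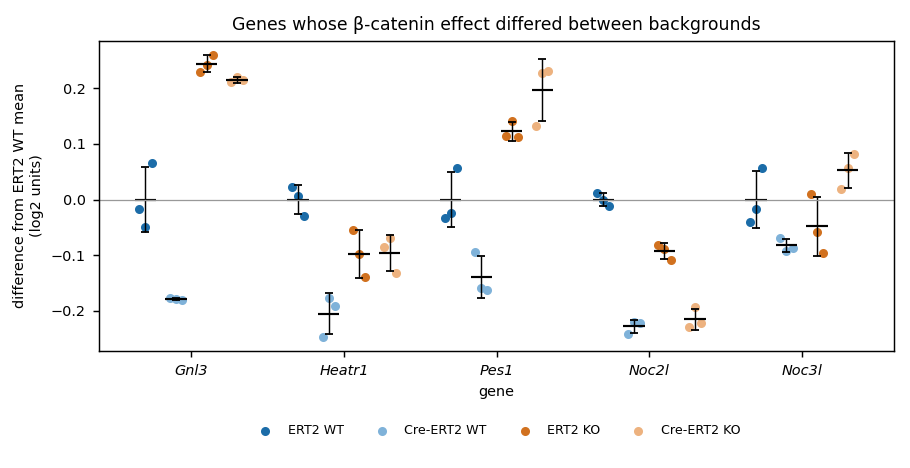
Values of the 5 genes whose β-catenin effect differed between KO and WT cells, as the difference from the ERT2 WT mean in log2 units (y axis). Points are single libraries, black lines are means and bars are SD (n = 3). Heatr1 falls from ERT2 WT to Cre-ERT2 WT by 0.21 and differs by 0.0019 between the KO groups.

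KO and WT cells were then compared with the same vector, where the guides and differences between lines grown from single cells cannot be told apart. In ERT2 libraries the 48 genes had no common direction, with 12 higher, 15 lower and 21 not called in KO cells, against 29.8% of all genes higher and 29.3% lower. Their median change was 0.0030, against 0.0016 for all genes. With each library centered on its median, the 48 genes were 12 higher and 18 lower with a median of −0.029, and all genes split into 2866 higher and 4747 lower in place of 3616 and 3559. Under quantile normalization 15 of the 48 were higher and 9 lower, with a median of 0.010, and all genes split into 3370 higher and 3906 lower. The widest changes of the 48 genes in any comparison lay here and in the next one.

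Npm1 measured 16.10, 16.10 and 16.11 in ERT2 KO libraries, above all ERT2 WT values, and was 0.48 higher (SE 0.028, adjusted p 1.15e-08), or 39.4%. Polr1c (ENSMUSG00000067148, chromosome 17, 46243920 to 46248054, minus strand) measured 10.00, 10.07 and 9.99 in ERT2 WT and 10.36, 10.33 and 10.30 in ERT2 KO libraries. The groups did not overlap, and it was 0.31 higher (SE 0.047, adjusted p 9.58e-05). Further rises were 0.28 in Rrp1b, 0.26 in Nop10, 0.24 in Gnl3 and 0.21 in Ddx10 (adjusted p 0.00016, 1.99e-05, 5.37e-06 and 1.36e-05). Nop56, Nop14, Mybbp1a, Pes1, Imp3 and Ddx18 were higher by 0.11 to 0.21.

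Rrp12 (ENSMUSG00000035049, chromosome 19, 41862851 to 41896173, minus strand) was the furthest below, with 10.57, 10.59 and 10.55 in ERT2 WT and 10.23, 10.16 and 10.06 in ERT2 KO libraries. It fell by 0.42 (SE 0.044, adjusted p 3.41e-06), or 25.2%, without overlap. Bop1, a partner of Pes1 in the PeBoW complex, fell by 0.29 (SE 0.038, adjusted p 3.06e-05), whereas Pes1 rose by 0.12 (SE 0.033, adjusted p 0.00643). Tsr1 fell by 0.27, Ubtf by 0.24, Bysl by 0.20 and Rrs1 by 0.15 (adjusted p 1.88e-05, 1.86e-06, 0.000357 and 0.00511). Utp18, Nop58, Wdr12, Nop2, Heatr1, Noc2l, Utp20, Ddx21 and Dkc1 fell by 0.067 to 0.14. By role, the 40S branch held 7 of the 15 falls and 3 of the rises, and the box C/D partners Nop56 and Nop58 moved apart, at 0.21 and −0.13.

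In Cre-ERT2 libraries more of the genes were higher in KO cells. Of the 48, 27 were higher, 7 lower and 14 not called, against 30.4% of all genes higher and 28.6% lower. The median change was 0.094, or 6.71% more, against 0.0016 for all genes. With each library centered on its median, 22 were higher and 9 lower with a median of 0.060, and all genes split into 2983 higher and 4789 lower in place of 3688 and 3473.

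The same gene led. Npm1 measured 15.99, 16.03 and 16.12 in Cre-ERT2 KO libraries, all above the Cre-ERT2 WT values, and was 0.58 higher (SE 0.028, adjusted p 1.83e-09), or 49.1%. Polr1c was 0.45 higher (SE 0.047, adjusted p 3.21e-06), Gnl3 0.39 higher (SE 0.027, adjusted p 5.49e-08) and Pes1 0.34 higher (SE 0.033, adjusted p 1.85e-06). Rrp1b and Nop10 were higher by 0.33 and 0.32 (adjusted p 3.42e-05 and 2.75e-06). Rrp12 fell by 0.28 (SE 0.044, adjusted p 0.000118), Tsr1 by 0.21 (SE 0.034, adjusted p 0.000127) and Ubtf by 0.21 (SE 0.023, adjusted p 7.16e-06). Bop1 at −0.20, Rrp9 at −0.15 and Bysl at −0.14 were lower too (adjusted p 0.000645, 0.0126 and 0.00337), and so was Utp18 at −0.10 (adjusted p 0.00418).

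By role, all 3 abundant proteins were higher in Cre-ERT2 KO cells, as were 4 of 6 genes of RNA polymerase I, 2 of 3 box C/D genes, 3 of 5 of the H/ACA group, 2 of 3 methyltransferases, 6 of 16 in the 40S branch and 7 of 12 in the 60S branch. The falls were 5 in the 40S branch, 1 in the 60S branch (Bop1) and 1 among the polymerase genes (Ubtf).

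The vector pairs share no library. The paper describes clonal lines made before the vectors were added, so both pairs may come from the same lines. The same fit also gave the spread of both, and they may not be independent repeats. Set side by side, 18 genes were called in the same direction in both vector pairs. Of these, 12 (25% of the 48, against 25% of all genes) were higher, namely Npm1, Gnl3, Polr1c, Mybbp1a, Nop56, Nop10, Nop14, Ddx10, Imp3, Rrp1b, Ddx18 and Pes1, and 6 (12.5%, against 24.1% of all genes) were lower, namely Rrp12, Bop1, Tsr1, Ubtf, Bysl and Utp18. A further 14 genes were called higher in Cre-ERT2 libraries alone, among them Fbl, Polr1b, Polr1a, Wdr74, Nop16 and Ncl. In ERT2 libraries alone, 8 were called lower. The share of all genes called in a single vector pair alone is not given here, so neither count can be set against it. Heatr1, outside both counts, was lower in ERT2 (−0.098, adjusted p 0.0101) and higher in Cre-ERT2 libraries (0.11, adjusted p 0.00516). The change between the vector pairs is the same quantity as the difference of the β-catenin effect, which passed the test in the 5 genes named above.

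**Figure D4:**
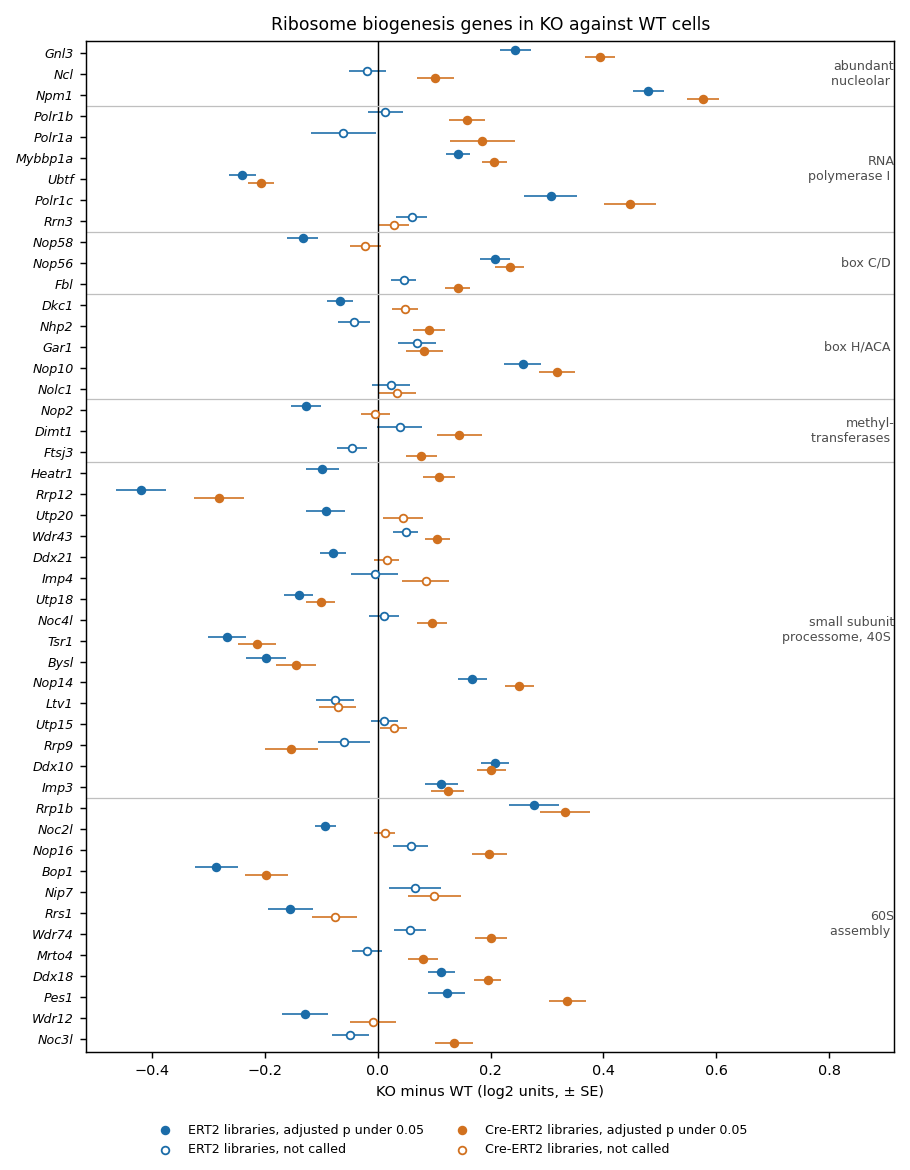
KO minus WT change of each of the 48 genes (log2 units, x axis) in ERT2 libraries (blue) and Cre-ERT2 libraries (orange), grouped by role. Points are differences of means of 3 libraries with their SE, and filled points passed the test. Npm1 lies furthest to the right at 0.48 and 0.58, and Rrp12 furthest to the left at −0.42 and −0.28.

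The mean of the 48 genes was also taken in each library. It was 11.27 ± 0.0022 (SD, n = 3) in ERT2 WT, 11.13 ± 0.0053 in Cre-ERT2 WT, 11.27 ± 0.024 in ERT2 KO and 11.22 ± 0.017 in Cre-ERT2 KO libraries. The 3 Cre-ERT2 WT libraries (11.13 to 11.14) lay below all the others, and the Cre-ERT2 KO libraries (11.21 to 11.24) lay below the ERT2 KO libraries (11.25 to 11.29). Myc, a known regulator of these genes, had means of 12.21 ± 0.0095, 11.59 ± 0.030, 13.31 ± 0.0039 and 13.00 ± 0.0074 in the same groups (SD, n = 3). Myc thus fell by 0.62 in WT and by 0.31 in KO cells upon β-catenin stabilization, and was higher in KO than in WT cells by 1.10 with ERT2 and by 1.41 with Cre-ERT2. The groups ERT2 WT and ERT2 KO differed by 1.10 in Myc and by a median of 0.0030 in the 48 genes. Whether Myc had a part in their changes was not tested.

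**Figure D5:**
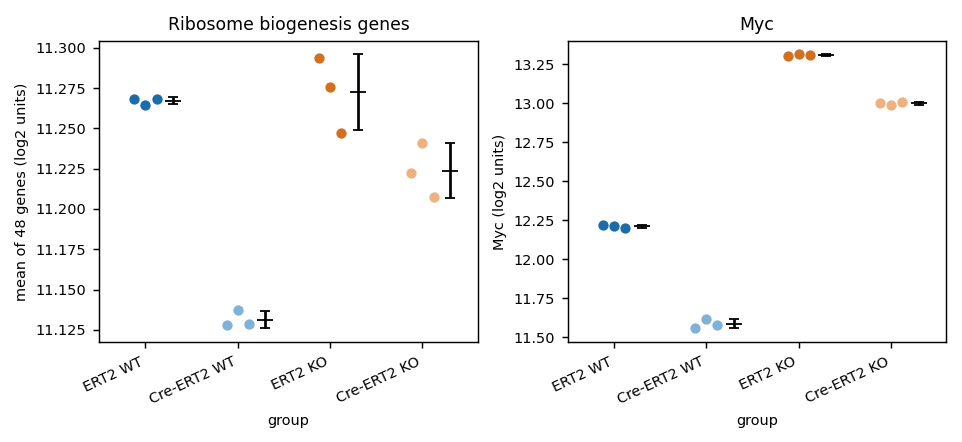
Mean of the 48 genes (left) and level of Myc (right) in each of the 12 libraries (log2 units, y axes that do not start at 0), by group (x axis). Points are libraries, and black marks are the mean and SD (n = 3). The Cre-ERT2 WT libraries are lowest in both panels, and the ERT2 KO libraries are highest in Myc at 13.31 but level with ERT2 WT at 11.27 in the mean of the 48 genes.

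The rest of the pathway was read from 102 further ribosome biogenesis genes of the table. In WT cells 31 of 102 (30.4%, against 5.95% of all genes) fell upon β-catenin stabilization and none rose (limma, 1 at an unadjusted p under 0.05), with a median of −0.080. The largest falls were in Lyar, a nucleolar zinc finger protein (0.21, SE 0.032, adjusted p 0.00105), and in the processome protein Wdr75 (0.19, SE 0.027, adjusted p 0.000568). In KO cells 11 (10.8%, against 5.33% of all genes) fell and none rose (2 at an unadjusted p under 0.05), with a median of −0.025. Tcof1, the rRNA transcription factor treacle, fell by 0.14 (SE 0.021, adjusted p 0.000668) and Lyar by 0.14 (SE 0.032, adjusted p 0.0142). The difference between backgrounds had a median of 0.035 and passed the test in 1 gene (0.98%, against 2.71% of all genes called higher), the helicase Ddx49 (0.20, SE 0.050, adjusted p 0.0457).

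Between KO and WT cells with ERT2, 25 of the 102 genes (24.5%) were higher and 30 (29.4%) lower, against 29.8% and 29.3% of all genes, with a median of 0.0064. With Cre-ERT2, 40 (39.2%) were higher and 16 (15.7%) lower, against 30.4% and 28.6% of all genes, with a median of 0.055. Taf1b, a subunit of the RNA polymerase I selectivity factor, rose by 0.69 and 0.74, and the processome protein Utp11l by 0.55 and 0.58. Ttf1, which ends rRNA transcription, fell by 0.29 and 0.33. The other largest falls were 0.27 in Utp23 with ERT2 and 0.25 in the helicase Dhx37 with Cre-ERT2. Adjusted p of these 8 changes ran from 1.01e-08 to 0.00145.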

How the data were processed

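Libraries were made from polyadenylated RNA (280 ng, 10 PCR cycles, a stranded kit). The authors quantified reads with Salmon 1.4.0, aligned them with STAR 2.7.6 and used DESeq2 1.30.1 with mm10/GRCm38, per the labels and the study's methods. They deposited 1 normalized log2 value per gene and library for 12151 genes. The transformation is not given in the sources used here, and without counts depth is unknown. If it compresses low values, changes and spreads of weakly expressed genes are understated. The table holds no fold changes or p-values of the authors, and no per-sample column was left out.

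Groups came from the sample titles. Means of 4 groups were fitted to all 12 libraries with limma 3.58.1 (R 4.3.3, lmFit, eBayes with a mean-dependent prior), without covariates, since no batch is labelled, and without a pseudocount. For 5 comparisons, p-values were adjusted over all genes (Benjamini-Hochberg) and called under 0.05. The script was tested on simulated data.

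The members and the lists were chosen with earlier results of these data known, so no p is given over a list. All members are accounted for by role. Full statistics go to up to 6 called rises and 6 called falls per comparison, with library values for leading members. Of the 102 further genes, the 2 largest called changes in each direction are named. Alternatives were median centering, quantile normalization, an untrended or robust prior, 6-library fits, a replicate block, a mean above 6, a pseudocount of 1, adjusted p under 0.01, and leaving out each library. Coordinates are from GENCODE vM21 and promoters from RefSeq (GRCm38.p6). Promoters of Bop1, Fbl, Npm1, Rrp12 and Rrs1 were not used here.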

Additional observations from a re-analysis of the deposited data

Results flagged for a closer look

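The β-catenin effect differed between KO and WT cells in 5 of the 48 genes, by the interaction term of the limma fit. The values, KO effect minus WT effect, were 0.21 for Pes1 (adjusted p 0.0223), 0.21 for Heatr1 (adjusted p 0.0113), 0.18 for Noc3l (adjusted p 0.0477), 0.15 for Gnl3 (adjusted p 0.0447) and 0.11 for Noc2l (adjusted p 0.0413). In Pes1, Heatr1 and Noc3l the WT value was below 0 and the KO value above it. In Pes1 and Heatr1 only the WT value was called, and in Noc3l neither was. In Gnl3 and Noc2l both values were below 0, and the KO value was called in Noc2l but not in Gnl3. The count of 5 became 2 with each library centered on its median, 2 with a replicate block, 1 to 6 when 1 library was left out and 0 at an adjusted p under 0.01, and Heatr1 was the only gene that passed in every alternative run at an adjusted p under 0.05. With 3 libraries per group, no sample was tested as lying apart from its group.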

How the results depend on the processing

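Depth limits could not be computed without counts, and 3 libraries per group are the only measure of error. No called gene reversed its direction in any alternative run. Calls that passed in every alternative at an adjusted p under 0.05 numbered 24 of 33 in WT and 3 of 7 in KO cells, 20 of 27 for KO against WT with ERT2, 26 of 34 with Cre-ERT2, and 1 of 5 (Heatr1) for the difference. With each library centered on its median, the median change of the 48 genes became −0.029 for KO against WT with ERT2 (0.0030 as reported) and 0.060 with Cre-ERT2, and 2 genes passed for the difference. Quantile normalization left 9 genes lower in KO against WT with ERT2. A fit to the 6 KO libraries called 3 genes lower and 934 of all genes in the β-catenin comparison. At an adjusted p under 0.01, 3 genes were lower in KO cells and 0 passed for the difference, and all-gene counts were 787 (WT), 790 (KO) and 240 (difference). The cause of these shifts was not tested, apart from the stricter threshold and the smaller number of libraries.

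Leaving out 1 library at a time gave 3 to 7 genes lower and 0 to 1 higher in KO cells, 1 to 6 for the difference, and 26 to 36 lower in WT cells. Ncl lost its call in WT cells under quantile normalization (adjusted p 0.0916).

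Replicate numbers are shared between groups. Same-numbered libraries correlated over 0.1 in 1 of 18 pairs (range −0.10 to 0.24). Differently numbered libraries were not compared, so these values cannot decide whether the numbers pair the libraries. With a replicate block, 2 genes passed for the difference in place of 5, and 33 and 6 were lower in WT and KO cells.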
